A study of Mus musculus with 6 samples.

Results

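The mitochondrial respiratory chain passes electrons from NADH and succinate to oxygen through complexes I to IV and pumps protons across the inner mitochondrial membrane. The ATP synthase, complex V, uses the proton gradient to make ATP. Most of the subunits are encoded in the nucleus, and complex IV has some subunits with paralogs that are used in muscle, in lung or in testis. Here the nuclear genes of the chain were compared between the mesenchyme and the urothelium of the embryonic mouse bladder. Members were all genes with a symbol starting with Nduf, Uqcr or Atp5, the succinate dehydrogenase genes Sdha to Sdhd, and the genes Cox4 to Cox8 followed by a letter or a letter and a number. There were 89 of them among the 18193 genes with a probe set of a single symbol. The rule reads symbols and no measured value, though this gene group was picked with earlier results of these data known.

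By role the members were 6 core subunits of complex I, 28 accessory subunits of complex I, 8 complex I assembly factors (Ndufaf genes, which are not subunits of the finished chain), 4 genes of complex II, 8 of complex III, 18 of complex IV and 17 of the ATP synthase. Ndufa4 and its relative Ndufa4l2 were counted with complex IV, where the Ndufa4 protein is now placed.

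Both compartments came from wild-type FVB/N mice at embryonic day 13, Theiler stage 21, with sex unknown. The bladders, cut just above the ureters, were held in 20 µM EDTA for 20 minutes, and a needle was then used to part the epithelium from the mesenchyme. RNA was amplified in 2 rounds and hybridised to Affymetrix MOE430 arrays, 3 for mesenchyme (replicates 1, 2 and 4) and 3 for urothelium (replicates 5, 7 and 8). The labels call the samples not pooled. They do not tie them to different embryos, and the p-values therefore reflect only how these 6 arrays vary, which may be technical. The comparison asks which genes differ between the compartments.

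Values are deposited array signals on a linear scale. Log2 differences are those of log2(signal + 45), urothelium minus mesenchyme. Adding 45 makes the difference of a dim gene too small. A gene passed the test at a limma adjusted p under 0.05. Signals of different probe sets do not compare as levels. Their order was used to choose which probe set or gene to show and to set apart brighter genes. Summed signals of marker lists add different probe sets, so a single bright probe set can make up most of a sum. The median signal per array was 131.6 to 239.7. Epithelial markers were higher in urothelium for 13 of 14 genes and mesenchymal markers higher in mesenchyme for 13 of 13. Smooth muscle markers were higher in mesenchyme for 8 of 10 genes and endothelial markers for 10 of 10. Mesenchyme 1 and urothelium 5 had the highest 3' to 5' ratios of beta-actin, 8.40 and 8.60, while the rest had 2.29 to 4.89. The same ratio of Gapdh did not group them: it was highest on urothelium 5 (26.3) but 11.5 on mesenchyme 1, within the 9.77 to 15.7 of the rest.

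Promoters are shown first because several members share one motif that is a known entry point for control of the chain. Promoter windows from RefSeq (GRCm38.p6, 250 bases before to 50 after the annotated start) matched 73 of the 89 members by Entrez identifier. NRF1, nuclear respiratory factor, is a transcription factor known for binding promoters of respiratory chain genes. Its motif, searched on both strands as GCGCA, then any base, then GCGC, was found in 17 of the 73 members (23.3%), against 5.19% of all 27025 genes in the table and 8.63% of the 14369 that have a probe set here. One stretch is printed for each role that holds a match, from the member with the highest signal and at the match nearest to the start. Capitals mark the motif, and each stretch runs along the gene's own strand:
Ndufa8 (accessory, complex I): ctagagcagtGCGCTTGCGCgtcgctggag
Ndufaf4 (assembly, complex I): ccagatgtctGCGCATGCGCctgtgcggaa
Sdha (complex II): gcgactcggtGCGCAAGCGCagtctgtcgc
Uqcrc1 (complex III): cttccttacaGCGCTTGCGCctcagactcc
Cox6a1 (complex IV): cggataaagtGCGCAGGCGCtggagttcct
Atp5c1 (ATP synthase): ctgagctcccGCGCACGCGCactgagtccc
They lie at chr2:36049349-36049378 on the minus strand for Ndufa8, chr4:24897960-24897989 on the plus strand for Ndufaf4 and chr13:74350231-74350260 on the minus strand for Sdha. The others lie at chr9:108936643-108936672 on the plus strand for Uqcrc1, chr5:115349056-115349085 on the minus strand for Cox6a1 and chr2:10080430-10080459 on the minus strand for Atp5c1. A match is a description of letters and does not show binding.

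Of 3 other motifs searched on both strands, that of YY1 (AAGATGGC) was found in 10 of the 73 members (13.7%), against 3.19% of all genes and 4.09% of those with a probe set here. Apart from those of Atp5j and Atp5pb, the YY1 matches lay wholly after the annotated start, so within the transcribed part of the window. The motif of GABPA (CCGGAAGT) was found in 5 (6.85%), against 4.31% and 6.65%, so the members' share was near that of the genes with a probe set. The motif of the estrogen-related receptors (CAAGGTCA) was found in 4 (5.48%), against 1.76% and 1.59%. In all, 32 members held at least 1 of the 4 motifs and 4 held more than 1. Differences between the compartments were read by motif as a description, with no test. Members with the NRF1 motif had a median log2 difference of 0.11, from −0.45 to 0.95, and members with a promoter but without it had 0.14. With and without the motif the medians were 0.13 and 0.12 for YY1, 0.23 and 0.11 for GABPA and 0.22 and 0.12 for the estrogen-related receptors.

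The respiratory chain genes differed little between the compartments. Cox7c, a small subunit of complex IV, was higher in urothelium, and it was the sole member past the test. That is 1 of 89 members higher in urothelium, against 5.80% of all genes tested. In either direction 14.7% of all genes passed. Of the 89 members 0 were higher in mesenchyme in the limma test, against 8.91% of all genes, and 1 of 89 had an unadjusted p under 0.05 in that direction (15.2% of all genes). In the direction of urothelium 4 had an unadjusted p under 0.05 (9.78% of all genes). The median log2 difference was 0.11 over the members and −0.11 over all genes. The members' median depended on single arrays: it was 0.0053 without mesenchyme 2, 0.06 without mesenchyme 1, 0.02 without urothelium 7 and 0.16 without urothelium 5. In RNA from bulk tissue, fewer cells of a type and less RNA per cell cannot be told apart.

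The differences were also narrow in spread. The SD of the log2 difference was 0.44 over the members and 1.15 over all genes, and 75 of 89 members (84.3%) lay within 0.5 of 0, against 55.9% of all genes. A difference of at least 1, that is 2-fold, was measured for 2 members, Cox7c and Cox5a (2.25%), against 20.5% of all genes. The 95% interval of the difference lay wholly between −1 and 1 for 41 members (46.1%), against 24.4% of all genes. For the remaining members a 2-fold difference was not outside the interval. Of the members 77 had a mean above that of the median gene. In those brighter genes as a whole 29.5% had an interval within −1 and 1, against 37 of the 77 members. Among the brighter genes 8.27% were higher in urothelium and 10.4% higher in mesenchyme, while 0 of the 77 members passed, as Cox7c is not among them.

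**Figure D1:**
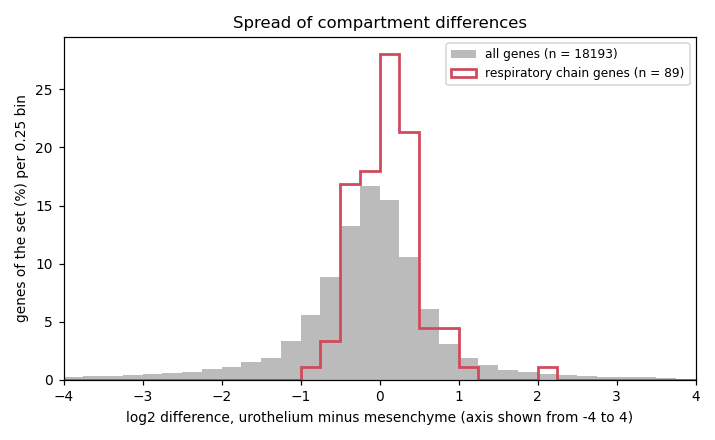
Histogram of log2 differences, urothelium minus mesenchyme, as the percentage of genes per bin of 0.25, for all 18193 genes (grey) and for the 89 respiratory chain genes (red line). The axis is shown from −4 to 4; the respiratory chain genes stay between −0.84 and 2.04, while all genes run from −6.14 to 8.24.

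**Figure D2:**
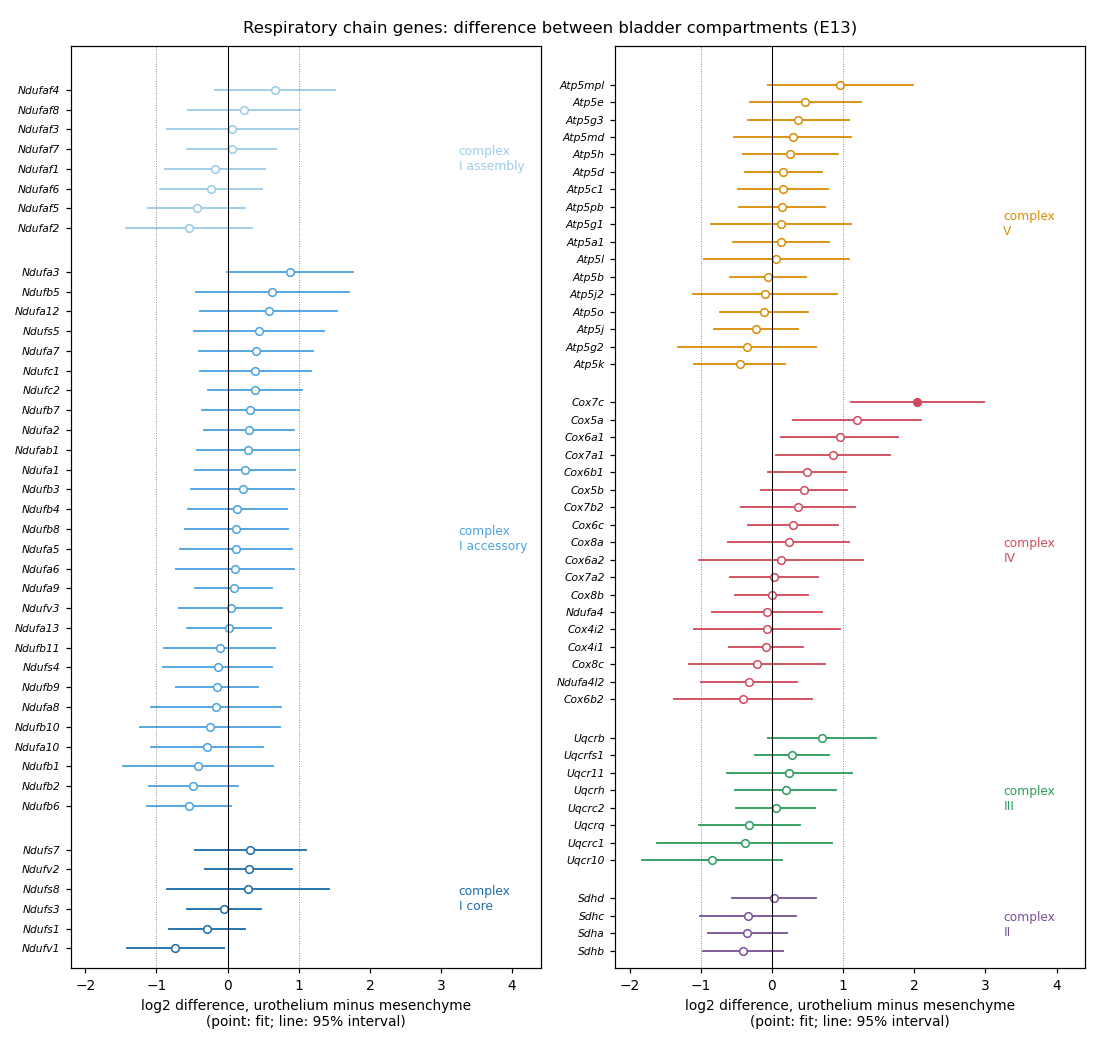
Log2 difference, urothelium minus mesenchyme, of each of the 89 genes, grouped by complex. Points are fitted differences from 3 arrays per compartment, lines are 95% intervals, dotted lines mark −1 and 1, and the filled point marks Cox7c, which alone passed the test.

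Complex I takes electrons from NADH, and its core subunits carry the flavin and the iron-sulphur clusters. Of its core and accessory genes 0 passed the limma test in either direction, and 1, Ndufv1, had an unadjusted p under 0.05. The 6 core genes had a median log2 difference of 0.12, from −0.73 to 0.32, and the 28 accessory genes had 0.12, from −0.54 to 0.88. Ndufv1 encodes the subunit that binds NADH. The mesenchyme arrays 1, 2 and 4 gave 13359, 15438 and 11403, and the urothelium arrays 5, 7 and 8 gave 5240, 9117 and 10642. All 3 mesenchyme arrays were above all 3 urothelium arrays, with the lowest value on urothelium 5. The log2 difference was −0.73 ± 0.31 (SE), with a 95% interval of −1.41 to −0.06 and a limma adjusted p of 0.161. Without urothelium 5 it was −0.43. Its other probe sets gave −0.69 and −0.50.

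Ndufs1, a core subunit with iron-sulphur clusters, had 18651, 14356 and 15285 in mesenchyme and 11666, 13516 and 14219 in urothelium. These values do not overlap, but the difference was small, −0.29 ± 0.24. Ndufs7, another iron-sulphur subunit, differed by 0.32 ± 0.35 and Ndufv2, the flavoprotein partner of Ndufv1, by 0.30 ± 0.28. The core genes thus stood on either side of 0, with 3 above and 3 below.

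Among the accessory genes, which surround the core, the largest difference was that of Ndufa3. It had 725, 1820 and 1761 in mesenchyme and 1815, 2966 and 2846 in urothelium, so that mesenchyme 1 was far below the rest and mesenchyme 2 just above urothelium 5. The difference was 0.88 ± 0.40 (95% interval −0.0019 to 1.76, limma adjusted p 0.201). It passed the test with arrays centred on their medians (1.26) and with the actin ratio as a covariate (0.93), but was 0.46 without mesenchyme 1. The other probe sets of Ndufa3 gave 0.47 and −0.27, the latter with signals of 64.9 to 169.4. Ndufb5, of the membrane arm, had 3816, 12647 and 19177 in mesenchyme and 13053, 17342 and 15290 in urothelium. Here mesenchyme 1 was again the lowest array and mesenchyme 4 the highest, and the difference was 0.63 ± 0.49. Ndufc2, a membrane arm subunit, differed by 0.39 ± 0.30. Ndufb2 had 3101, 3190 and 4507 in mesenchyme and 2713, 2841 and 2102 in urothelium, without overlap, and differed by −0.48 ± 0.29.

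The 8 assembly factors had a median of −0.06, with 4 on each side of 0 and 0 past the limma test. Ndufaf4 led towards urothelium with 5315, 10436 and 15127 in mesenchyme and 20165, 14185 and 11793 in urothelium, a difference of 0.67 ± 0.38. Its other probe set gave −0.18. Ndufaf2 led in the other direction with −0.54 ± 0.40. Values of both genes overlapped between the compartments.

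Complex II is succinate dehydrogenase, the sole enzyme shared by the respiratory chain and the tricarboxylic acid cycle. Of its 4 genes 3 had lower signals in urothelium, though 0 passed the limma test, and the median difference was −0.34. Sdha, the flavoprotein subunit, had 21289, 22365 and 21242 in mesenchyme and 20920, 17487 and 13509 in urothelium. Sdhb, the iron-sulphur subunit, had 18729, 18773 and 17728 in mesenchyme and 10860, 15590 and 15774 in urothelium. For both genes all mesenchyme arrays were above all urothelium arrays, as for 18.1% of all genes. The mesenchyme values were closely grouped, with an SD of 635 around a mean of 21632 for Sdha and of 591 around 18410 for Sdhb. The differences were −0.34 ± 0.25 for Sdha and −0.41 ± 0.25 for Sdhb, with limma adjusted p of 0.474 and 0.374. A further probe set of Sdha had 21335, 16767 and 17513 in mesenchyme and 17622, 12437 and 13092 in urothelium. There the compartments overlapped, with a difference of −0.37. With arrays centred on their medians, which moved the difference of the median gene from −0.11 to 0.28, that of Sdhb was −0.02.

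The membrane anchors of complex II did not share one direction. Sdhc had 3199, 2817 and 4890 in mesenchyme and 2245, 2968 and 3219 in urothelium (−0.34 ± 0.30). Sdhd had 11060, 8707 and 7596 against 7638, 11400 and 8942 (0.03 ± 0.27). Both overlapped between the compartments.

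Complex III passes electrons from ubiquinol to cytochrome c. Its 8 genes had a median of 0.12 and 0 passed the limma test. Uqcrfs1, the Rieske iron-sulphur protein, had 12386, 13410 and 15425 in mesenchyme and 16887, 17471 and 15598 in urothelium. These values do not overlap, yet the difference of 0.28 ± 0.24 had a 95% interval of −0.24 to 0.80. Uqcrb, a small subunit, had 32654, 49756 and 54885 in mesenchyme and 108672, 72518 and 48548 in urothelium, with the highest value on urothelium 5 and overlap through urothelium 8. It differed by 0.70 ± 0.34, and its other probe set gave 0.11. Uqcr10, also a small subunit, had the largest difference towards mesenchyme of all members, −0.84 ± 0.45 (limma adjusted p 0.287). Its signals were 1692, 700.4 and 1158 in mesenchyme and 356.9, 821.2 and 734.3 in urothelium, and they overlapped. Its other probe sets were dim and gave 0.29, with signals of 2.31 to 43.9, and −0.22, with signals of 44.5 to 224.6.

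Complex IV, cytochrome c oxidase, reduces oxygen to water. Its nuclear genes held the difference past the test and 5 of the 7 members whose urothelium arrays were all above the mesenchyme arrays. Such a lack of overlap towards urothelium was found for 7 of 89 members (7.87%), against 12.0% of all genes, and towards mesenchyme for 5 members (5.62%), against 18.1%. The 18 genes had a median log2 difference of 0.18, from −0.41 to 2.04.

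Cox7c gave 285.1, 117.0 and 165.1 on the mesenchyme arrays 1, 2 and 4, while the urothelium arrays 5, 7 and 8 gave 1092, 813.0 and 761.4. The lowest urothelium array was thus well above the highest mesenchyme array. Means were 189.0 ± 86.6 (SD, n = 3) in mesenchyme and 888.7 ± 177.7 in urothelium. The log2 difference was 2.04 ± 0.42 (SE; 95% interval 1.11 to 2.98) with a limma adjusted p of 0.00707. A further, dimmer Cox7c probe set had 13.5, 79.5 and 55.8 in mesenchyme and 343.0, 189.1 and 200.2 in urothelium. It differed by 1.64 ± 0.45, with a limma adjusted p of 0.0496 over 34945 probe sets. The call was kept without each array in turn, with log2 differences from 1.81 to 2.32. Without both mesenchyme 1 and urothelium 5 it was 2.17.

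As the member past the test, Cox7c is shown with its promoter. The stretch holds the 120 bases before the RefSeq start, chr13:86046796-86046915 on the minus strand of GRCm38.p6, and none of the 4 motifs was found in its window:
Cox7c: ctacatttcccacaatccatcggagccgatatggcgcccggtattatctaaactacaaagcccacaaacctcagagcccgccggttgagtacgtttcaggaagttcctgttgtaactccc
Markers of other cell types were read beside this gene. Of 8 measured neural crest and neuron markers 2 were higher in urothelium, Erbb3 (5.10) and Ret (3.50). Higher in mesenchyme were 2, Hand2 (−3.874) and Stmn2 (−2.002), and the median log2 difference of the list was −0.53. The summed signal of the list was 25290 to 31087 in urothelium and 5741 to 13572 in mesenchyme. Erbb3 alone gave 20455 to 25963 of it in urothelium and 478.3 to 799.5 in mesenchyme. The glial and neural crest factors Sox10 and Foxd3 differed by 0.18 and 0.05, and Foxd3 had signals of 16.1 to 70.7 over all arrays. Of 6 mesothelial markers 2 were higher in urothelium, Msln (5.16) and Krt19 (4.49), which is also an epithelial keratin. Higher in mesenchyme were 3, Wt1 (−3.19), Lrrn4 (−3.02) and Muc16 (−1.71). The summed signal of these 6 was 30436 to 51818 in urothelium and 5874 to 16884 in mesenchyme. Krt19 alone gave 25319 to 39218 of it in urothelium and 1030 to 1990 in mesenchyme. The part of the cells behind these markers in the difference of Cox7c was not tested.

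Cox5a, a matrix-side subunit that also binds a thyroid hormone metabolite, had 9528, 24566 and 33422 in mesenchyme and 48403, 47966 and 40454 in urothelium. All urothelium arrays were above all mesenchyme arrays, and mesenchyme 1 was far below the rest. The difference was 1.19 ± 0.41 (95% interval 0.29 to 2.09) and was not past the test, with a limma adjusted p of 0.0825. Its other probe sets gave 1.04 and 0.998. Without mesenchyme 1 the difference was 0.66 (limma adjusted p 0.109), and without mesenchyme 4 it was 1.57 and past the test (limma adjusted p 0.0310). It also passed with array weights (0.81), with median centring (1.58) and with the actin ratio as a covariate (1.22).

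Cox6a1, the general form of subunit VIa, had 8318, 19654 and 24151 in mesenchyme and 29658, 33354 and 28880 in urothelium. Mesenchyme 1 was again the lowest, and the compartments did not overlap. The difference was 0.95 ± 0.37 (limma adjusted p 0.129), but 0.49 without mesenchyme 1, and its other probe set gave 0.08. Cox6b1, the general form of subunit VIb, had 16949, 15246 and 20235 in mesenchyme and 24900, 27387 and 21520 in urothelium. The compartments did not overlap, and the difference was 0.50 ± 0.25 (limma adjusted p 0.251). With array weights Cox6a1 (0.65) and Cox6b1 (0.57) passed the test.

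The paralogs linked to single tissues were read next to the general forms, for their differences and not for their levels. Cox7a1, the heart and muscle form of subunit VIIa, had 43.0, 52.4 and 56.9 in mesenchyme and 119.2, 193.2 and 88.3 in urothelium, without overlap. The difference was 0.86 ± 0.36 (limma adjusted p 0.164) and passed with array weights (1.06). Cox7a2, the general form, had 31748, 23790 and 32990 against 34208, 34935 and 21931 and differed by 0.02 ± 0.28. Of 9 skeletal muscle and heart markers 3 were higher in mesenchyme, Tnnt2, Tnnt1 and Actc1, and 0 in urothelium. The summed signal of the 9 was 7063 to 13629 in mesenchyme and 931 to 1210 in urothelium. The part of muscle cells in the difference of Cox7a1 was not tested. For Cox4i1, the general form of subunit IV, the arrays gave 24884, 21928 and 24516 against 20388, 23401 and 23742 (−0.08 ± 0.23). For Cox4i2, the form known from lung and from low oxygen, they gave 126.9, 223.6 and 140.8 against 64.8, 239.0 and 192.4 (−0.07 ± 0.47). Neither differed beyond its error, though the interval of Cox4i2, −1.10 to 0.96, was the wider.

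For the remaining paralogs the 95% interval of each difference held 0. Cox6a2, the muscle form, differed by 0.13 ± 0.52, with a single high array, mesenchyme 1 (415.3, against 82.6 to 238.7 on the others). Cox8a, the general form of subunit VIII, differed by 0.23 ± 0.38. The muscle form Cox8b had signals of 4.88 to 16.0 on all arrays and the testis-linked Cox8c differed by −0.21 ± 0.43. The testis-linked Cox6b2 differed by −0.41 ± 0.44. Ndufa4 differed by −0.07 ± 0.35 and the hypoxia-linked Ndufa4l2, with signals of 23.3 to 65.3, by −0.32 ± 0.30. All 6 signals lay under the median of all deposited values, 179, for 4 members, Cox7b2, Cox8b, Ndufa4l2 and Ndufb4. No detection calls were used, so these genes are not said to be absent.

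**Figure D3:**
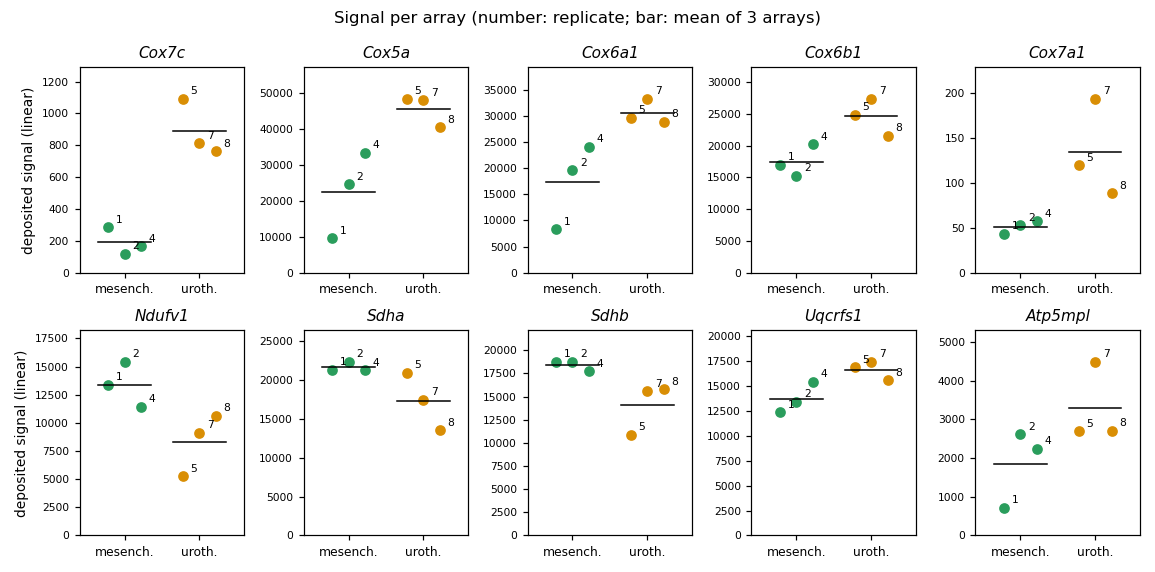
Deposited signal per array on linear axes that start at 0, for 10 respiratory chain genes whose compartments do not overlap. They are not typical of the set: such a lack of overlap was found for 7 of 89 members towards urothelium and 5 towards mesenchyme. Points are arrays with their replicate number, green for mesenchyme and orange for urothelium, and bars are means of 3 arrays; in Cox5a, Cox6a1 and Atp5mpl the low mesenchyme array is mesenchyme 1.

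The ATP synthase makes ATP in a catalytic head that is driven by a ring of c subunits in the membrane. Its 17 genes had a median of 0.13 and 0 passed the limma test. Atp5c1, the central stalk subunit, had 85728, 56104 and 57957 in mesenchyme and 78078, 85499 and 57756 in urothelium (0.16 ± 0.29). The compartments overlapped. Atp5mpl, a small proteolipid of the membrane part, had 715.5, 2618 and 2239 in mesenchyme and 2696, 4495 and 2706 in urothelium. Mesenchyme 1 was the low array, and mesenchyme 2 was just under urothelium 5 and 8. It had the largest difference of the complex, 0.96 ± 0.46 (limma adjusted p 0.229). Atp5e, the epsilon subunit, differed by 0.47 ± 0.35.

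The c subunit is encoded by 3 genes whose products differ in the peptide that targets them to the mitochondrion. Atp5g1 had 2369, 1611 and 2128 in mesenchyme and 983.1, 3411 and 3140 in urothelium (0.13 ± 0.45). Atp5g2 had 11499, 3256 and 6409 against 3175, 5554 and 6541 (−0.35 ± 0.44). Atp5g3 had 69803, 43658 and 45771 against 94720, 67136 and 47487 (0.37 ± 0.32). For each of the 3 genes the compartments overlapped.

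Across arrays the members did not follow the compartment. Each member was centred on its own mean over the 6 arrays. The median deviation was then −0.13, −0.12 and 0.18 on mesenchyme 1, 2 and 4 and −0.12, 0.25 and 0.03 on urothelium 5, 7 and 8. Over all genes the same medians were 0.14, 0.0022 and 0.0077 in mesenchyme and −0.18, −0.02 and 0.0063 in urothelium. The medians of complex II and complex IV did lie apart by compartment, while those of the other roles overlapped. For complex II they were 0.19, 0.08 and 0.15 in mesenchyme and −0.36, −0.06 and −0.02 in urothelium. For complex IV they were −0.22, −0.15 and −0.07 in mesenchyme and −0.01, 0.47 and 0.05 in urothelium. Urothelium 7 gave the highest of the 6 signals for 30 of 89 members (33.7%), against 13.2% of all genes. On mesenchyme 1, 8 members (8.99%, against 7.09% of all genes) were at least 1 log2 unit below both other mesenchyme arrays: Atp5mpl, Cox5a, Cox6a1, Ndufa12, Ndufa3, Ndufb5, Ndufs8 and Uqcrc1. On urothelium 5, 6 members were as far below the other urothelium arrays (6.74%, against 5.70% of all genes), among them again Ndufs8 and Uqcrc1. These are the 2 arrays with the highest actin ratio. With that ratio as a covariate in the fit of every gene, 3 members were higher in urothelium, Cox7c, Cox5a and Ndufa3, against 7.60% of all genes, and 0 in mesenchyme by limma. Without both arrays, as with all 6, 1 member was higher in urothelium and 0 in mesenchyme by limma.

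**Figure D4:**
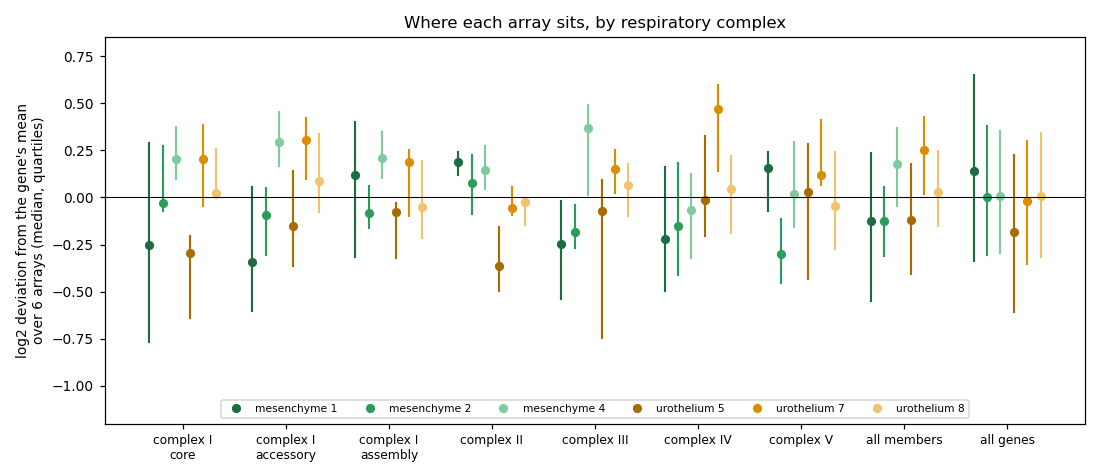
Median (point) and quartiles (line) of the log2 deviation of genes from their own mean over 6 arrays, for each array and role, with all 89 members and all genes at the right. Over all members mesenchyme 1, mesenchyme 2 and urothelium 5 lie below 0. Mesenchyme 4 and urothelium 7 lie above it, so this order does not follow the compartments. The medians of complex II, which has 4 genes, and complex IV do lie apart by compartment. For complex IV the gap is narrow, from −0.07 on mesenchyme 4 to −0.01 on urothelium 5.

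The probe sets of a gene give a measure of the error that the arrays alone do not. The members had 176 probe sets with a single symbol, and 50 members had more than 1. The probe sets of a member differed by a median of 0.42 in log2 difference, and by over 1 for 7 members. They differed in sign for 28 of the 50. No signal limit was set, so these counts include dim probe sets, such as that of Cox5b with signals of 3.49 to 11.9. Bright probe sets also differed in sign, as those of Ndufaf4 did (0.67 and −0.18). The part of dim probe sets in these counts was not tested. Tested singly, 2 of the 176 were past the limma test, both of Cox7c and both higher in urothelium.

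Other mitochondrial genes that serve the chain were read from lists. Over 184 genes of 6 lists 4 were higher in urothelium and 2 in mesenchyme, against 5.80% and 8.91% of all genes, with a median of 0.03. Of 43 electron carriers and assembly factors outside the rule 0 passed the limma test in either direction (median 0.0002). Cytochrome c (Cycs) differed by 0.29 ± 0.33 and cytochrome c1 (Cyc1) by −0.04 ± 0.27. Of 76 mitochondrial ribosomal proteins, which translate the subunits encoded in mitochondrial DNA, 1 was higher in each compartment (median −0.06). They were Mrps6 towards urothelium (0.88 ± 0.26) and Mrpl4 towards mesenchyme (−1.07 ± 0.30). Of 12 genes of coenzyme Q synthesis 1 was higher in urothelium, Coq10b, a coenzyme Q binding protein gene (0.99 ± 0.27, median of the list 0.05). By limma the adjusted p ran from 0.0315 to 0.0422 over these 3 genes, and each call was lost when single arrays were left out. That of Mrps6 was lost without mesenchyme 2 (0.74), mesenchyme 4 (0.98), urothelium 7 (0.86) or urothelium 8 (0.79). That of Mrpl4 was lost without mesenchyme 1 (−1.01), mesenchyme 2 (−1.09), mesenchyme 4 (−1.10), urothelium 5 (−0.83) or urothelium 7 (−1.07). That of Coq10b was lost without mesenchyme 2 (0.92), mesenchyme 4 (1.06), urothelium 5 (0.92) or urothelium 7 (0.86).

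Of 18 genes of the tricarboxylic acid cycle and pyruvate dehydrogenase 1 was higher in mesenchyme (median 0.12). It was Idh2, the mitochondrial NADP-dependent isocitrate dehydrogenase, with 33975, 20286 and 17614 in mesenchyme and 10653, 5551 and 10080 in urothelium. The lowest mesenchyme array was above the highest urothelium array, and the difference was −1.44 ± 0.34 (limma adjusted p 0.0148). The call was lost without urothelium 7 (−1.15), with median centring (−1.06) and when its probe sets were averaged (−0.79). Smooth muscle, endothelial and macrophage markers were also higher in mesenchyme, the last for 5 of 9 genes, and their part in the difference of Idh2 was not tested. Their summed signals in mesenchyme were 113638 to 137268, 25803 to 30178 and 6822 to 9502, against 6067 to 7036, 1358 to 2055 and 874 to 1446 in urothelium.

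Of 11 genes of nucleotide, phosphate and membrane channels and mitochondrial creatine kinases 1 was higher in urothelium (median 0.18). It was Ckmt1, the ubiquitous mitochondrial creatine kinase, which passes the phosphate of ATP to creatine. Its signals were 19.1, 42.3 and 9.38 in mesenchyme and 376.7, 280.9 and 441.7 in urothelium, a log2 difference of 2.59 ± 0.39 (limma adjusted p 0.000869). The size rests on the scale, with 4.12 at a pseudocount of 1, 1.42 at a pseudocount of 179 and 1.19 when its probe sets were averaged, past the test each time.

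Among 24 regulators of mitochondrial biogenesis and mitochondrial DNA 1 passed the test, and it was higher in urothelium (median 0.25). It was Ppargc1a, which encodes PGC-1alpha, a coactivator known for raising expression of respiratory chain genes together with NRF1, GABPA and the estrogen-related receptors. The mesenchyme arrays 1, 2 and 4 gave 210.4, 530.0 and 595.5, while the urothelium arrays 5, 7 and 8 gave 5210, 5074 and 3562. Every urothelium array was far above every mesenchyme array. The log2 difference was 3.34 ± 0.40 (95% interval 2.45 to 4.22) with a limma adjusted p of 0.000196. It was 2.92 without mesenchyme 1 and 2.30 when its probe sets were averaged, past the test each time.

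Tfam, Nrf1, Gabpa and Esrra did not pass. Tfam, the mitochondrial DNA packaging and transcription factor, had 4747, 8161 and 10027 in mesenchyme and 12067, 11289 and 13998 in urothelium. These did not overlap, and the difference was 0.76 ± 0.31 (limma adjusted p 0.144). It passed with median centring (1.14) and with the actin ratio as a covariate (0.79), but was 0.45 without mesenchyme 1 and 0.16 when its probe sets were averaged. Nrf1 differed by −0.85 ± 0.64, with a wide spread in mesenchyme from 862.6 to 5682. Gabpa differed by 0.01 ± 0.31 and Esrra, an estrogen-related receptor, by 0.31 ± 0.43.

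**Figure D5:**
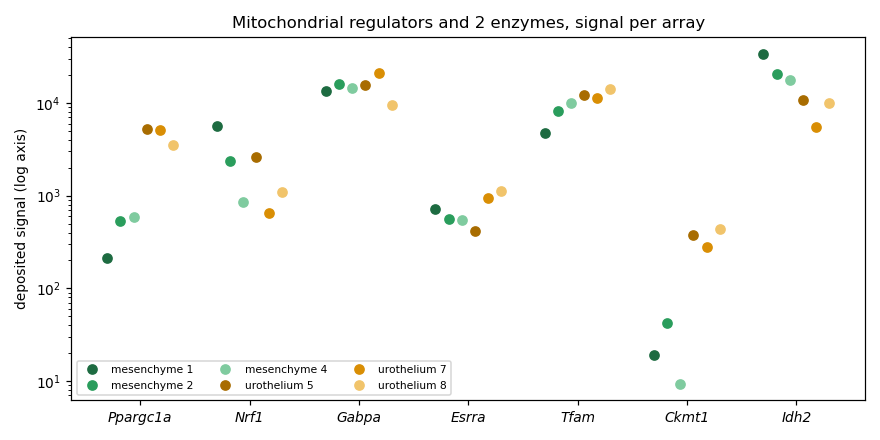
Deposited signal per array on a log axis for Ppargc1a and 4 other regulators, and for Ckmt1 and Idh2. Points are arrays, greens for mesenchyme and oranges for urothelium. The urothelium arrays all lie above the mesenchyme arrays for Ppargc1a, Ckmt1 and Tfam, and below them for Idh2.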

How the data were processed

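Each deposited table gives the intensity of 45101 probe sets, not logged. GCOS is named in the submitters' processing notes, while the algorithm is not given in the sources used here. Detection calls were not used. All arrays had a 2% trimmed mean of 1500, so they were not scaled again. A difference in RNA content per cell is not visible after such scaling. Probe sets with a single symbol in the platform annotation (34945) gave 18193 genes, each read from its probe set with the highest mean. There were 10 further probe sets with a member's symbol among several, and they were left out. Entrez identifiers matched 89 members to the RefSeq gene table, and 0 symbols differed there.

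Deposited intensity was transformed as log2(signal + 45), 45 being the 25th percentile of all values. A model with the compartment as factor was fitted to all genes in limma 3.58.1 (R 4.3.3) by lmFit and by eBayes with a trend on intensity, after it was tested on simulated data, with Benjamini-Hochberg adjustment over all genes. The number of arrays limits the precision.

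The members and lists were chosen with earlier results of these data known. The lists were electron carriers and assembly factors, coenzyme Q synthesis, the tricarboxylic acid cycle, channels, regulators, mitochondrial ribosomal proteins and cell type markers. Of 9 red cell markers 7 were measured, 4 of them higher in mesenchyme. Named were members past the test, the 2 largest differences and the highest signal in each role, complex II, paralogs, up to 3 genes past the test per list, and 5 regulators. Other members were named after their values were seen. Alternatives were other pseudocounts, scalings, filters, variance models, weights, probe sets and the actin ratio, and leaving arrays out.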

Additional observations from a re-analysis of the deposited data

How the results depend on the processing

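No paired analysis was possible because the compartments share no replicate number. The count of members higher in urothelium was 1 as reported, 3 with arrays centred on their medians (adding Cox5a and Ndufa3; 9.28% of all genes), 3 with the actin ratio as a covariate (the same additions; 7.60%), 5 with array weights (adding Cox5a, Cox6a1, Cox6b1 and Cox7a1; 11.3%) and 0 when genes under the median signal, Cox7c among them, were left out. It was 1 to 2 without each array in turn, 2 being without mesenchyme 4. The count higher in mesenchyme was 0 under all of these. The median difference over members moved from 0.11 to 0.49 with median centring, which moved that of all genes from −0.11 to 0.28. With quantile normalization the medians were 0.12 over members and 0.03 over all genes, which lie closer together than 0.11 and −0.11. The members' median was 0.02 when probe sets were averaged. For the other mitochondrial lists the count higher in urothelium was 10 with median centring, 2 without the intensity trend, 11 with array weights and 7 with the actin ratio. The count higher in mesenchyme was 0, 1 and 15 under the first 3 of these (6.49%, 9.02% and 16.5% of all genes) and 1 when probe sets were averaged. With each array left out in turn these counts ran from 2 to 4 and from 0 to 3. The causes were not tested. For single genes and lists 860 comparisons with an alternative kept the call, 31 gained one and 47 lost one, and 0 of the called values changed sign. For the main counts and the median 59 comparisons were alike, 8 counts rose and 12 fell past 1.5 times, and 1 median moved.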
